A study of Homo sapiens with 8 samples.

Results

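The mitotic cyclins and kinases described here are 10 genes whose products start and steer mitosis: CDK1, CCNA2, CCNB1, CCNB2, CDC25C, PLK1, AURKA, AURKB, NEK2 and BORA. They were taken by gene symbol from the 22109 genes measured, and each of the 10 had 1 probe set with that symbol alone. Total RNA of MDA-MB-231 cells, a human breast cancer line from a pleural effusion that lacks hormone receptors, was hybridised to 8 Affymetrix Human Gene 2.1 ST arrays. The groups were 3 untreated samples (control), 3 at a low dose and 2 at a high dose of a plant preparation, harvested after 24 h. The titles and the treatment protocol name a wild yam root extract, made in ethanol and diluted in salt solution, at 15 and 30 µg/mL, both described as sublethal. For the low group, however, the source names read Boswellia Serrata Extract (128 µg/mL). For the high group they read 3-O-Acetyl-β-boswellic acid (46 µg/mL), a single compound. The arrays fall into the same 3 groups either way, but the agent is unsettled and the pair of treated groups may not be 2 doses of one agent. "Low" and "high", also in "low dose" and "high dose", are used as group names only, and no order of dose is implied. The labels give the controls no treatment and mention no ethanol for them. Nothing in the labels states that replicates were separate cultures, so p-values measure only the spread between these samples, which may be technical.

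Entry into mitosis is driven by the kinase CDK1 bound to a cyclin. Cyclin A2 acts in S phase and G2, and cyclins B1 and B2 carry the cell into mitosis. Inhibitory phosphates on CDK1 are removed by the phosphatase CDC25C, which PLK1 helps to activate, while BORA helps Aurora A (AURKA) to activate PLK1. Aurora B (AURKB) works at centromeres and in cytokinesis, and NEK2 separates the centrosomes. Cycling cells make the RNAs of these genes mainly in late S phase, G2 and mitosis. Their promoters are known for CCAAT boxes, bound by NF-Y, and for the cell cycle homology element, a site of the MuvB complexes. In RNA from whole cultures, fewer cells in G2 and mitosis and less of these RNAs per cell cannot be told apart.

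Promoter sequences from RefSeq (GRCh38.p14) were matched for 9 of the 10 genes; AURKA had no entry. The 150 bases before the annotated start were searched on both strands for CCAAT, which reads ATTGG on the opposite strand, and for TTTGAA, a form of the cell cycle homology element, with its variant TTCGAA. No match overlapped another. For genes with several starts, the one with the most CCAAT matches was taken. All 9 promoters held CCAAT, against 30.8% of the 15156 tested genes with an entry, and 5 of the 9 held it at least 2 times, against 8.80%. TTTGAA or its variant was present in 5 of 9, against 7.56%. A match is a description of these letters, not a site shown to be used. The 5 promoters with repeated CCAAT are shown, with that of PLK1 for its TTTGAA; each runs 5′ to 3′ and ends just before the start, and the motifs are in capitals.
CDK1 (chr10:60778328-60778477, plus strand): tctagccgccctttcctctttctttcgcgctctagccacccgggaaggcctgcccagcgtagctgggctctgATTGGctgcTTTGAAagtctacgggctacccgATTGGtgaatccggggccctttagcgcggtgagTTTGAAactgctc
CCNB1 (chr5:69167000-69167149, plus strand): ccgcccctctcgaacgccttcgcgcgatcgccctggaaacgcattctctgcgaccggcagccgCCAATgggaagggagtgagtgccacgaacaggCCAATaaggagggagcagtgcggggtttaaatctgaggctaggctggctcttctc
CCNB2 (chr15:59104996-59105145, plus strand): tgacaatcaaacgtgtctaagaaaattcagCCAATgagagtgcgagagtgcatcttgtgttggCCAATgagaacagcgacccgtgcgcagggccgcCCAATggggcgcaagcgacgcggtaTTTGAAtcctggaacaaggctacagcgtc
NEK2 (chr1:211675622-211675771, minus strand): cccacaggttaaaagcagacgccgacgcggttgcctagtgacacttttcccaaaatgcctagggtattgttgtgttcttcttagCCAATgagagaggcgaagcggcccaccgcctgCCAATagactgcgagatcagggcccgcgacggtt
BORA (chr13:72727773-72727922, plus strand): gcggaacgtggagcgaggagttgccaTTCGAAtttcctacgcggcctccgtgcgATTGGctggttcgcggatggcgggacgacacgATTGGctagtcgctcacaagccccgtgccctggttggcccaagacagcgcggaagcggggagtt
PLK1 (chr16:23678739-23678888, plus strand): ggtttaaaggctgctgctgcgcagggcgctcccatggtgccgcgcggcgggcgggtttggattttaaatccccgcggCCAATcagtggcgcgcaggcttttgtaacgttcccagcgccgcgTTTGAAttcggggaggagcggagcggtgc

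Neighbouring CCAAT boxes were 32 bases apart, first base to first base, in CDK1, CCNB1, NEK2 and BORA, and 33 apart in CCNB2, which had 3. TTTGAA began 29 bases before the start in CCNB2 and PLK1 and 30 before it in CDC25C. In CDK1 the nearer match began 13 bases before the start. In BORA the match, TTCGAA, lay farther out, at 124 bases. CCNA2 and AURKB had 1 CCAAT match each and no TTTGAA or variant in the window.

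Across all genes, arrays of 1 group correlated at 0.972 to 0.994. The upper quartile of the log2 level was 4.54 on low 3 and high 2 and 4.73 on control 3, against 4.80 to 4.94 on the others. The first principal component held 31.6% of the variance and set control 3 apart. Of 6 mesenchymal markers of this line, FN1 had a mean log2 level of 9.62, while SPARC had 2.12. The luminal and receptor genes ranged from 1.35 (PGR) to 4.92 (EPCAM) over 5 of 6 listed genes. Hepatocyte and endothelial markers lay between 1.84 and 1.99 (4 of 5 listed), and among 3 of 4 leukocyte markers PTPRC had 1.13 but CD68, a lysosomal protein also made outside leukocytes, 8.14. No gene of these 5 lists passed the test in either treated group. Levels of different probe sets are not on a common scale, and the table has no background measure.

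Control 3 also stood apart within the mitotic genes. It lay above both other controls for 8 of the 10 genes, a pattern seen in 34.5% of all genes, and below them for PLK1 and AURKB. Its excess over the mean of controls 1 and 2 was largest for NEK2 (1.35 on the log2 scale), CCNB2 (1.22) and CDK1 (1.20), and was -0.21 for PLK1 and -0.23 for AURKB. Controls 1 and 2 differed from each other by at most 0.15, except for BORA (0.62). The SD among controls therefore ranged from 0.14 (AURKB) to 0.78 (NEK2), with a median of 0.50 against 0.20 over all genes. For the 10 genes, high-dose differences without control 3 are given beside those that it moved most. The low-dose changes that it moved most are given without it once, with the order of the falls.

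**Figure D1:**
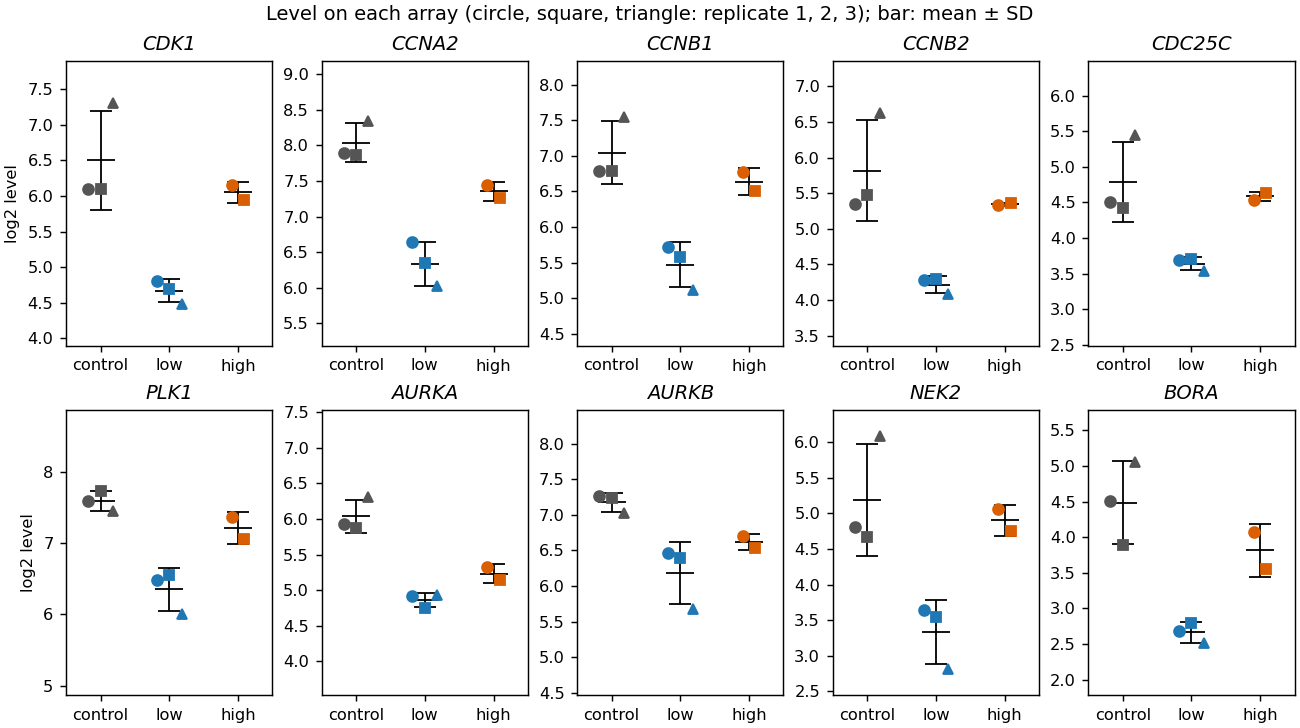
Log2 level (vertical axis, 4 log2 units high in each panel) of each of the 10 genes on each array, with the group mean and SD as bars; circles, squares and triangles are replicates 1, 2 and 3. For all 10 genes the 3 low arrays sit below every control and every high array, and control 3 is the highest control for 8 genes.

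All 10 genes fell at the low dose. The fall was largest for NEK2, CDK1 and BORA and smallest for AURKB, from 3.62-fold to 1.98-fold. That order depended on control 3: without it CCNA2 and BORA had the largest changes (-1.54 each) and CDC25C the smallest (-0.82). NEK2, CDK1 and CCNB2 then changed by -1.41, -1.43 and -1.19. Over all 8 arrays the 10 genes had a median change of -1.58 on the log2 scale against -0.04 over all genes. Of all 22109 genes, 1.81% were called lower in this comparison (limma, adjusted p under 0.05). For every one of the 10 the low arrays lay below all controls, which held for 13% of all genes. They also lay below both high arrays, and 3.38% of all genes had every low array below every other array.

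At the high dose none of the 10 passed the test. All 10 fitted differences from control were negative, between -0.81 and -0.20 (median -0.46, against -0.12 over all genes, of which 67.4% were negative). The median of the 10 was -0.27 without control 3 and -0.22 with quantile normalization. CDC25C turned positive with quantile normalization (0.01), which moved the median of all genes by 0.10, and CDC25C and NEK2 without control 3. In limma 0 of 10 were called lower at an adjusted p under 0.05, against 0.389% of all genes, and 4 of 10 had an unadjusted p under 0.05 (CCNA2, AURKA, AURKB and BORA), as had 11.4% of all genes in this direction. Both high arrays lay below all controls for 5 of the 10 genes, as for 22.9% of all genes. The low and high comparisons share the same 3 controls.

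**Figure D2:**
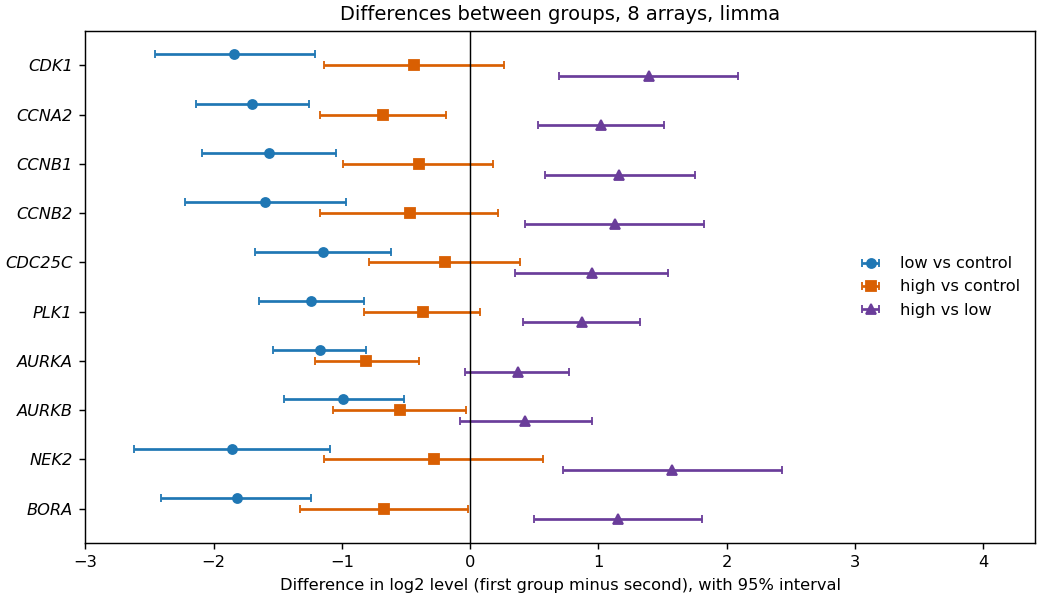
Difference in log2 level (horizontal axis; first group minus second) with its 95% interval for low against control, high against control and high against low, from limma over 8 arrays. Low against control lies below 0 for all 10 genes, while high against low is above 0 in estimate for all 10, its interval reaching 0 for AURKA and AURKB.

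CDK1, the kinase itself, had log2 levels of 6.10, 6.10 and 7.30 in the controls, 4.81, 4.70 and 4.49 at the low dose and 6.16 and 5.95 at the high dose. The high arrays lay at the level of controls 1 and 2, and the low arrays were more than 1 log2 unit below both. CDK1 fell by 1.84 ± 0.29 (SE) at the low dose (3 against 3 arrays, limma adjusted p = 0.00668). Its difference from control at the high dose was -0.44 ± 0.32 (2 against 3 arrays, limma adjusted p = 0.559), and -0.04 ± 0.19 without control 3.

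CCNA2, which encodes cyclin A2, measured 7.90, 7.86 and 8.35 in the controls, 6.64, 6.35 and 6.02 at the low dose and 7.45 and 7.26 at the high dose. Here the high arrays lay between the other groups without overlap, 0.40 below the lowest control. The fall at the low dose was 1.70 ± 0.20 (limma adjusted p = 0.00233), the smallest adjusted p of the 10. The difference at the high dose was -0.68 ± 0.22 (limma adjusted p = 0.203), with a 95% interval from -1.17 to -0.19.

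CCNB1, which encodes cyclin B1, measured 6.79, 6.78 and 7.55 in the controls, 5.72, 5.58 and 5.11 at the low dose and 6.77 and 6.50 at the high dose. CCNB2, for cyclin B2, measured 5.35, 5.47 and 6.63, then 4.28, 4.29 and 4.08, then 5.33 and 5.36. The high arrays of CCNB1 lay just below the controls, by 0.02, those of CCNB2 lay beside control 1, and in both genes every low array was more than 1 log2 unit below all controls. They fell by 1.57 ± 0.24 and 1.60 ± 0.28 at the low dose (limma adjusted p = 0.00581 and 0.0120). Their differences at the high dose were -0.40 ± 0.26 and -0.47 ± 0.32 (limma adjusted p = 0.517 and 0.527), and without control 3 they were -0.15 and -0.07.

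CDC25C, the phosphatase that activates CDK1, had levels of 4.51, 4.42 and 5.44 in the controls, 3.69, 3.70 and 3.53 at the low dose and 4.54 and 4.63 at the high dose. Both high arrays lay between control 1 and control 3. It fell by 1.15 ± 0.24 at the low dose (limma adjusted p = 0.0275), a call lost with the replicate number as a block over the control and low arrays (limma adjusted p = 0.0701; 8 of the 10 genes and 1.4% of all genes were then called lower). The high dose differed by -0.20 ± 0.27 (limma adjusted p = 0.783), and by 0.12 ± 0.17 without control 3. Its sign also turned with quantile normalization (0.01) and with array weights (0.05).

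PLK1, the Polo kinase, measured 7.59, 7.73 and 7.45 in the controls, 6.49, 6.56 and 6.01 at the low dose and 7.37 and 7.06 at the high dose. Its controls were among the tightest of the 10 (SD 0.14), and control 3 was the lowest of them. Both high arrays lay between the low arrays and the controls, 0.08 below the lowest control. PLK1 fell by 1.24 ± 0.19 at the low dose (limma adjusted p = 0.00548) and differed by -0.37 ± 0.21 at the high dose (limma adjusted p = 0.438). BORA, the Aurora A cofactor, measured 4.51, 3.89 and 5.06, then 2.69, 2.80 and 2.51, then 4.08 and 3.55. Its low arrays were 1.10 below the lowest control, but its high arrays overlapped the controls. BORA fell by 1.82 ± 0.27 (limma adjusted p = 0.00499) and differed by -0.67 ± 0.30 at the high dose (limma adjusted p = 0.333), or by -0.39 ± 0.25 without control 3.

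AURKA, the Aurora kinase gene of the spindle poles, measured 5.93, 5.88 and 6.31 in the controls, 4.92, 4.75 and 4.93 at the low dose and 5.33 and 5.14 at the high dose. AURKB, that of the centromeres, measured 7.26, 7.24 and 7.02, then 6.47, 6.40 and 5.68, then 6.70 and 6.54. In both genes the high arrays lay nearer to the low arrays than to the controls: the gap to the nearest low array was 0.21 and 0.07, and that to the nearest control 0.55 and 0.32. AURKA fell by 1.17 ± 0.16 and AURKB by 0.99 ± 0.21 at the low dose (limma adjusted p = 0.00414 and 0.0292). AURKA differed by -0.81 ± 0.18 at the high dose, the largest of the 10 there (limma adjusted p = 0.0790). AURKA was called lower at the high dose with the replicate block (-0.72 ± 0.17, limma adjusted p = 0.0414), where 4.66% of all genes were, and with array weights (adjusted p = 0.0406), where 3.48% were; over all alternatives its adjusted p ranged from 0.0406 to 0.419. AURKB differed by -0.55 ± 0.24 (limma adjusted p = 0.311).

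NEK2, the centrosome kinase gene, varied most. Its levels were 4.81, 4.67 and 6.09 in the controls, 3.64, 3.55 and 2.81 at the low dose and 5.06 and 4.75 at the high dose. Control 3 was far above the other controls and low 3 far below the other low arrays. The low arrays lay below all others, and the high arrays lay within the range of the controls. NEK2 fell by 1.86 ± 0.35 at the low dose (limma adjusted p = 0.0155), a call lost with the replicate number as a block over the control and low arrays (limma adjusted p = 0.0779). Its difference at the high dose was -0.28 ± 0.39 (limma adjusted p = 0.787), and 0.17 ± 0.26 without control 3.

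Without control 3, all 10 genes were still called lower at the low dose (1.85% of all genes), with a median change of -1.31. Without low 3, which lay below low 1 and 2 for 9 of the 10 genes (60.1% of all genes), 6 were called (0.85% of all genes), and CCNB2, CDC25C, AURKB and NEK2 no longer passed. The same 4 genes did not pass when p-values were adjusted over all 53617 probe sets (0.384% of which were called lower). With quantile normalization 9 were called (2.52% of all genes), without CDC25C, and in a fit of the control and low arrays only 8 (1.43%), without CDC25C and AURKB. AURKB and CDC25C were the closest to the threshold. AURKB failed when control 1, control 2, low 2, low 3, high 1 or high 2 was left out (limma adjusted p from 0.0522 to 0.105), and CDC25C when low 1, low 2, low 3, high 1 or high 2 was (0.0524 to 0.0978). Over all alternatives the adjusted p ran from 0.00159 to 0.105 for AURKB, from 0.00247 to 0.107 for CDC25C, from 0.000932 to 0.0816 for NEK2 and from 0.000441 to 0.0626 for CCNB2. The other 6 genes passed under every alternative that tested them. Without control 3, low 3 and high 2 together the median change was -1.14. The upper quartile over all genes was also low on low 3 and high 2, and its part in these differences was not tested. With each array centred on its median the low-dose changes ran from -1.85 to -0.98.

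**Figure D3:**
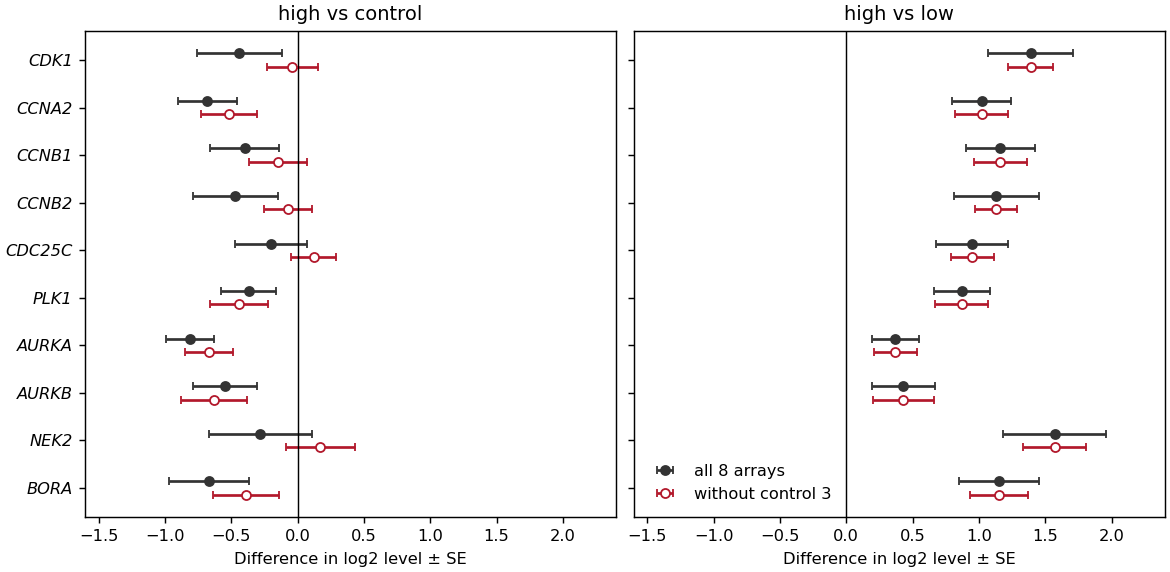
Difference in log2 level ± SE (horizontal axis) for high against control (left) and high against low (right), over all 8 arrays (filled) and without control 3 (open, red). Leaving out control 3 brings CDK1, CCNB2, CDC25C and NEK2 to between -0.07 and 0.17 of the controls, and leaves the high-low differences in place with smaller errors for CDK1, CCNB2, CDC25C and NEK2.

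The high arrays were set directly against the low arrays. All 10 differences were positive, from 0.37 ± 0.18 (AURKA) to 1.57 ± 0.39 (NEK2), with a median of 1.07 against -0.07 over all genes. The high arrays lay above all low arrays for every gene, which held for 8.77% of all genes. After adjustment limma called none of the 10 (adjusted p from 0.300 to 0.624), and called 1 gene of 22109 higher (0.00452%); 8 of the 10 had an unadjusted p under 0.05, as had 2.56% of all genes in this direction. AURKA and AURKB were the exceptions, with 95% intervals from -0.04 to 0.77 and from -0.08 to 0.95.

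Control 3 enters this comparison only through the shared estimate of the spread. Without it 7 of the 10 passed as higher at the high than at the low dose (0.335% of all genes): CDK1 (1.39 ± 0.17, limma adjusted p = 0.00586), CCNB2 (1.13 ± 0.16, limma adjusted p = 0.0107), NEK2, CDC25C, CCNB1, CCNA2 and BORA. PLK1 did not pass (0.87 ± 0.20, limma adjusted p = 0.0787), nor did AURKA and AURKB (0.37 ± 0.16 and 0.43 ± 0.23). In a fit of the low and high arrays alone 3 passed, CDK1, CCNB2 and NEK2 (0.131% of all genes). The adjusted p of CDK1 ranged from 0.00586 to 0.771 over the alternatives, and the differences of the 10 genes stayed positive under all of them.

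The 10 genes varied together. Over the 8 arrays the 45 pairwise correlations ran from 0.69 (CDC25C with AURKB) to 0.99 (CDK1 with CCNB2), with a median of 0.94. These arrays share the treatment differences. The deviations from the group means correlated at a median of 0.73, from -0.35 (AURKA with AURKB) to 0.99 (CCNB1 with NEK2). Control 3 was the highest control for 8 of the 10 genes and low 3 the lowest low array for 9, and both arrays enter these deviations. How far the correlations rest on them was not tested, and no value over all genes was computed. The mean of the 10 centred levels was 0.49, 0.42 and 1.14 in the controls, -0.65, -0.72 and -1.07 at the low dose and 0.30 and 0.09 at the high dose. CCNB1 followed that mean most closely (r = 0.996) and AURKB least (r = 0.846).

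Among other protein-coding genes, those most like this mean over the 8 arrays were NUSAP1, PRC1, KIF11, ANLN, KPNA2, ANP32E, TMX1 and NCAPG, with r from 0.993 to 0.997. They were chosen by the same 8 arrays, so their differences between groups describe that choice and support nothing further. NUSAP1 bundles spindle microtubules, PRC1 those of the spindle midzone, KIF11 is the motor that pushes spindle poles apart, ANLN is a scaffold of the cleavage furrow and NCAPG a condensin subunit. No mitotic role is given here for KPNA2, ANP32E or TMX1. The low-dose changes of the 8 ran from -1.58 (KIF11) to -0.60 (TMX1), and their high-dose differences from -0.53 (KIF11 and ANLN) to -0.16 (TMX1). TMX1 was not called at the low dose (limma adjusted p = 0.0697). Without control 3, 6 of the 8 were again among the leading 8.

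Other genes of the mitotic pathway were taken from 7 lists, of which 88 of 91 genes were measured. At the low dose 35 of the 88 fell and 1 rose (1.81% and 1.19% of all genes), and the median change was -0.64. High arrays against controls gave 5 lower and 0 higher in limma (0.389% and 0.425% of all genes), with 40 lower and 3 higher at an unadjusted p under 0.05 (11.4% and 3.03% of all genes). The median there was -0.46. High against low gave 0 calls, with 4 lower and 23 higher at an unadjusted p under 0.05 (6.1% and 2.56% of all genes).

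Among regulators of mitotic entry 4 of 16 fell at the low dose, with a median of -0.22. They were CDKN3, a phosphatase that acts on CDK1 and CDK2 (-1.65 ± 0.27), CCNF, which encodes cyclin F (-1.07 ± 0.16), CDC25A, the relative of CDC25C that acts also at the G1/S boundary, and MASTL, the Greatwall kinase. CDC25A was also the 1 gene of this list that fell at the high dose (-1.11 ± 0.21, limma adjusted p = 0.0439). Its levels were 5.89, 5.82 and 5.27 in the controls, 4.72, 4.80 and 4.45 at the low dose and 4.63 and 4.47 at the high dose. High minus low was -0.11 ± 0.21 for CDC25A, which was named for its calls in both treated groups, and 0.95 ± 0.27 for CDC25C. Whether CDC25A and CDC25C differ in this was not tested.

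Of the 10 partners of Aurora and Polo kinases 8 fell at the low dose (median -1.10). CDCA8, the borealin subunit that places Aurora B on chromosomes, fell by 1.73 ± 0.18 (limma adjusted p = 0.00125). BIRC5 and INCENP, for the other non-kinase subunits of that complex, fell as well (limma adjusted p = 0.0073 and 0.0174). KIF11 fell by 1.58 ± 0.23 and TACC3, an Aurora A substrate on the spindle, by 1.42 ± 0.17. AUNIP, which binds Aurora A, was the 1 gene of this list called lower at the high dose (-1.01 ± 0.19, limma adjusted p = 0.0430). Its low-dose difference was also negative (-0.66 ± 0.17, limma adjusted p = 0.0753), and high minus low was -0.35 ± 0.19. The levels of AUNIP were low, from 2.28 to 3.56. Among 13 other mitotic kinases, of 15 listed, 8 fell at the low dose (median -1.15). The largest falls were those of PBK (-1.94 ± 0.29), the checkpoint kinase gene BUB1 (-1.61 ± 0.22) and PLK4, which governs centriole duplication (-1.51 ± 0.26).

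PLK2, a stress-responsive relative of PLK1, was the 1 kinase of this list that fell at the high dose. It measured 7.73, 7.63 and 7.52 in the controls, 6.54, 6.57 and 6.30 at the low dose and 6.35 and 6.04 at the high dose. It fell by 1.15 at the low and by 1.43 ± 0.18 at the high dose (limma adjusted p = 0.00560). The high arrays of PLK2 overlapped its low arrays, whereas those of PLK1 lay between its low arrays and its controls without overlap. PLK2 was named for its call at the high dose, and whether PLK1 and PLK2 differ was not tested.

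Of 20 genes of the anaphase-promoting complex and mitotic exit 5 fell at the low dose (median -0.59), led by FBXO5, the inhibitor of that complex (-1.45 ± 0.26), ESPL1, which encodes separase (-1.18 ± 0.18), and the ubiquitin-conjugating enzyme gene UBE2C (-1.17 ± 0.20). None of the 20 passed at the high dose, and the smallest p-values were those of CDC23 (-0.77 ± 0.18, limma adjusted p = 0.0781) and ESPL1 (-0.73 ± 0.20, limma adjusted p = 0.143). Among 15 genes of G2/M transcription 3 fell at the low dose (median -0.39): FOXM1, the activator of many mitotic genes (-1.25 ± 0.20), LIN9, a MuvB subunit (-1.16 ± 0.19), and RBL1, the pocket protein p107 (-1.07 ± 0.19). None of the 15 passed at the high dose, where RBL1 had -1.01 ± 0.21 (limma adjusted p = 0.0574) and TFDP1 -0.68 ± 0.21 (limma adjusted p = 0.184).

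In the G2 checkpoint and arrest list (10 of 11 measured) CDKN1A, which encodes the CDK inhibitor p21, rose at the low dose, and the replication checkpoint genes CLSPN (-1.12 ± 0.22) and TIMELESS (-1.07 ± 0.17) fell. CDKN1A had levels of 4.62, 4.33 and 3.27 in the controls, 6.34, 6.18 and 5.70 at the low dose and 5.38 and 5.38 at the high dose. Control 3 was the lowest array, and the high arrays lay between the controls and the low arrays. It rose by 2.00 ± 0.30 at the low dose (limma adjusted p = 0.00610) and differed by 1.31 ± 0.34 at the high dose (limma adjusted p = 0.116). Over the alternatives the low-dose rise ran from 1.6 to 2.27 and the high-dose difference from 0.91 to 1.58.

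All 5 proliferation markers fell at the low dose (median -1.02), among them TOP2A, the mitotic topoisomerase (-1.65 ± 0.25), MKI67, which encodes Ki-67 (-1.22 ± 0.16), and RRM2, a ribonucleotide reductase subunit (-1.02 ± 0.16). PCNA, the replication clamp (-0.82 ± 0.16, limma adjusted p = 0.0444), and TYMS, thymidylate synthase (-0.97 ± 0.17, limma adjusted p = 0.0328), fell at the high dose. High minus low was 0.18 ± 0.16 for PCNA and 0.04 ± 0.17 for TYMS, the markers called at the high dose. It was 1.29 ± 0.28 for TOP2A, 0.62 ± 0.18 for MKI67, 0.43 ± 0.18 for RRM2 and 1.39 ± 0.32 for CDK1. Whether these differences differ from each other was not tested. The 5 calls at the high dose depended on single arrays: 16 genes of the lists were lower without control 3 (3.35% of all genes), and 1 each without control 1, control 2, low 1 or low 2. Of the 5, PLK2 kept its call in 17 of 18 alternatives, AUNIP in 8 of 17, CDC25A in 9 of 18, and PCNA and TYMS in 10 of 18.

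**Figure D4:**
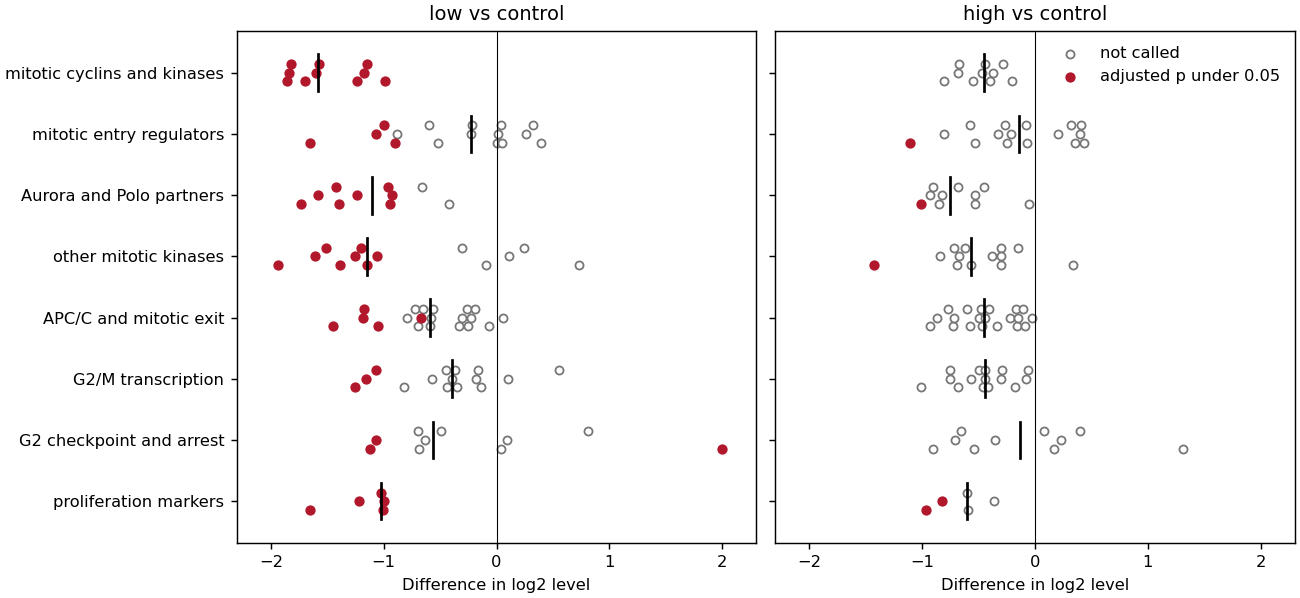
Difference in log2 level from control (horizontal axis) of each gene, by list, at the low dose (left) and the high dose (right); filled points passed limma at an adjusted p under 0.05 and vertical bars are list medians. All 10 mitotic cyclins and kinases are filled at the low dose and none at the high dose, and the 1 filled point to the right is CDKN1A.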

How the data were processed

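Per the submitters' processing notes the arrays were processed with the Transcriptome Analysis Console; its version, and how values were summarized and normalized, is not stated in those sources. The authors deposited 1 table of values, taken as log2 from their range (up to 12.10), for 53617 probe sets. The platform annotation gave 23558 rows 1 gene symbol, 2155 several and 27904 none; rows with 1 symbol were used, and the row with the highest mean was kept for each of 22109 genes. With limma 3.58.1 (R 4.3.3) 1 mean per group was fitted to the 8 arrays (5 residual and 6 prior degrees of freedom), and p-values were adjusted by Benjamini-Hochberg over all genes of a comparison. No filter or further normalization was applied. The number of arrays limits the precision. The code was tested on simulated data. The genes, lists and alternatives were chosen with earlier results of these data known. All 10 genes were named, with the 3 largest called changes of each list in each treated group, or else its 2 smallest p-values; MASTL, BIRC5 and INCENP were named after their values were seen. Deviations of same-numbered control and low arrays correlated at 0.103, 0.153 and 0.203, all above 0.1, so the block alternatives took the numbers to pair them. However, control 1 with low 2 reached 0.122, while the other differently numbered pairs ran from -0.179 to 0.065. These values therefore do not settle whether the arrays were paired, and the main fit used no block. For the high arrays the same-numbered values were 0.094 and -0.049 with the controls.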

Additional observations from a re-analysis of the deposited data

How the results depend on the processing

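The alternatives were other normalizations, variance models, filters and blocks, and fewer arrays; the block over control and low arrays alone was chosen after seeing the data. All 10 genes kept their negative sign at the low dose and their positive sign for high against low under every alternative that tested them. The filter at a mean log2 level of 4 removed BORA. At the low dose 6 genes were called with all probe sets as features, and 6 to 10 when 1 array was left out. The median change moved to -1.24 with array weights and to -1.14 without control 3, low 3 and high 2 together, where the high-dose median was -0.10. At the high dose 1 gene was called with the replicate block and 1 with array weights. For high against low 1 was called with array weights (0.0769% of all genes) and 3 in the fit of the compared groups only (0.131%). When 1 control or low array was left out 0 to 7 were called, 7 being without control 3 (0.335% of all genes). High-dose differences that changed sign were CDC25C (0.01 with quantile normalization, 0.05 with array weights, 0.08 without the 3 arrays, and -0.39 to 0.12 when 1 array was left out, 0.12 being without control 3), NEK2 (0.06 with array weights, 0.32 without the 3 arrays, and -0.54 to 0.17 when 1 array was left out, 0.17 being without control 3), CDK1 (0.06 without the 3 arrays) and TOP2A (0.10 without the 3 arrays).

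Among the pathway lists, the genes lower at the high dose numbered 18 with the replicate block, 18 with array weights, 14 without the 3 arrays, 3 with a variance trend, 1 with all probe sets, 1 with the compared groups only, and 0 to 16 when 1 array was left out. Those higher at the low dose numbered 4 with quantile normalization, 3 each with median centring, the replicate block and the filter, 6 with array weights, 2 without the 3 arrays and 2 with the block over control and low arrays; at the high dose there was 1 with quantile normalization, median centring, the replicate block, the filter or without the 3 arrays, and 0 to 1 when 1 array was left out. The cause of these shifts was not tested. Among list genes named at the low dose, CDC25A lost its call in 6 alternatives (all probe sets, and without control 1, control 2, low 1, low 2 or low 3), CLSPN in 5 (the same but low 2), FBXO5 in 4 (all probe sets, the block over control and low arrays, and without low 2 or low 3), PLK4 in 2 (all probe sets and that block) and RBL1 in 2 (without control 1 or low 2). The replicate block ended no call of the 10 genes at the low dose over all arrays, but over the control and low arrays alone CDC25C and NEK2 did not pass. Over all genes it gave 576 lower and 483 higher at the low dose, against 400 and 264, and 1031 lower and 197 higher at the high dose, against 86 and 94. Quantile normalization gave 557 lower and 621 higher at the low dose and 135 lower and 327 higher at the high dose, and array weights 1094 and 961, then 769 and 235. Choosing among rows was not run as an alternative, since each of the 10 genes has 1 row. With 2 high arrays, leaving 1 out assumes that the other varies like the remaining groups.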
